A study of Mus musculus with 20 samples.

Results

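The genes described here were the collagen and laminin chains of the mouse retina other than type IV collagen. They were all genes in the count tables whose symbol is that of a collagen alpha chain, without the type IV chains, or of a laminin alpha, beta or gamma chain. Of 35006 genes, 48 had such a symbol, and 44 of these reached at least 0.5 CPM (the field's usual unit of expression, a gene's reads scaled to a fixed total of reads in each library) in 4 or more of the 20 libraries. The same level was reached by 16832 genes in all. The 4 chains left out were Col3a1, Col10a1, Col13a1 and Col28a1. Members were chosen by symbol and by level over all libraries, and this rule uses no difference between groups. It was set with earlier results of these data known. At the lower edge of this rule, Lamb3 reached 0.5 CPM in 7 libraries and Col6a5 in 8, while Col3a1 and Col13a1 just outside it reached it in 3. Col19a1, Col15a1 and the type VIII and type IX chains, on which the comparisons turn, reached it in all 20.

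The study asked whether N-acetylcysteine ethyl ester (NACET), a cysteine donor that enters cells, alters the aging retina. Polyadenylated RNA of whole retinas from wild-type C57BL/6J mice, with no transgene or deletion in any group, was sequenced as 1 library per mouse. Young control mice (n = 4) were 119 days old and old control mice (n = 4) were 668 days old, and neither received the drug. Young NACET mice (n = 6) and old NACET mice (n = 6) received 50 mg/kg of NACET per day in drinking water for 5 days. By their titles, 4 of the young NACET mice were 129 days old and 2 were 119 days old. The batch tag of 1 of these 2, young NACET 6, reads 129 days instead. The old NACET mice came as 2 of 668 days, 2 of 581 days and 2 of 574 days. The old mice were labelled male, whereas 2 mice of each young group were labelled female. The female-specific transcript Xist was present in 1 old control library with a male label.

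Collagens are trimers of alpha chains wound into a triple helix, and the identity of the chains decides the structure they build. Fibril-forming collagens make the fibrils of the vitreous, sclera and cornea, fibril-associated collagens coat those fibrils, and other types build networks, beaded filaments or anchoring fibrils, or stay in the cell membrane. Laminins are trimers of 1 alpha, 1 beta and 1 gamma chain, and they form the sheet of basement membranes on which cells rest. In the retina such sheets are the inner limiting membrane, made largely by the end feet of Muller glia, the basement membrane of blood vessels, and Bruch's membrane under the pigment epithelium.

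The 20 libraries held 17700500 to 31081959 gene counts. Gnat1, the transducin subunit of rod photoreceptors, measured between 14500 and 22000 CPM in every library, so the labelled tissue was present throughout. Several libraries stood apart in markers of neighbouring eye tissue. Lens markers summed to 11300 CPM in old NACET 1 and to at most 22 CPM elsewhere. Ciliary epithelium markers summed to 52.2 CPM in young control 4 and to 32.7 CPM in old NACET 3, against at most 10.4 CPM in the others. Corneal and conjunctival markers, led by Krt5 and Krt12, summed to 622 CPM in old control 2 and to between 275 and 570 CPM in young NACET 3, 4 and 5, against at most 73.8 CPM elsewhere. Retinal pigment epithelium markers varied from 38.6 CPM in old NACET 3 to 266 CPM in young control 4. Young control 1 held relatively fewer reads of long genes, by 0.35 on the log2 scale between the longest and the shortest genes, and the members are long, with a median of 7251 exon bases against 3575 over expressed genes. In whole-tissue libraries such as these, fewer cells of a type and less RNA per cell cannot be told apart.

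The members together made up 0.0502% to 0.0826% of the gene counts. Their levels are compared here as CPM per kilobase of exon, averaged over the 20 libraries, since longer genes collect more reads. Among fibril-forming collagens, Col2a1, the main fibril chain of the vitreous, was highest at 11.6 ± 1.81 CPM per kb (SD over 20 libraries). Its companions in the same fibrils followed, with Col11a2 at 3.86 ± 0.802 and Col11a1 at 1.73 ± 0.337 CPM per kb. Col1a1 and Col1a2, the chains of type I collagen that dominate in sclera and skin, stood at 0.228 ± 0.08 and 0.229 ± 0.179 CPM per kb. Thus the retina held far more transcript of the vitreous type of fibril collagen than of the scleral type.

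Fibril-associated collagens were led by Col9a1, which coats type II fibrils, at 9.75 ± 1.81 CPM per kb, and by Col20a1 at 9.10 ± 1.42 CPM per kb. The partners of Col9a1 in type IX collagen were lower, Col9a2 at 3.57 ± 0.738 and Col9a3 at 2.79 ± 0.683 CPM per kb. Type VI collagen, the beaded filament, was more uneven. Its chain Col6a1 had the highest level of all members per kb of exon, 15.4 ± 2.88 CPM per kb. Col6a2 had 1.40 ± 0.225 and Col6a3 had 0.0994 ± 0.199 CPM per kb. Per kilobase of the longest coding sequence in place of all exons, the same order of these type VI chains held, with 21.9, 3.74 and 0.149 CPM per kb. The transcripts of Col6a1, Col6a2 and Col6a3, which can form 1 trimer in tissues, were therefore not present in equal amounts here. The remaining type VI chains differed too. In young and old controls Col6a4 averaged 4.97 and 7.24 CPM, Col6a6 1.16 and 1.28 CPM and Col6a5 0.395 and 0.41 CPM. Col6a3 averaged 0.645 and 0.736 CPM in the same groups.

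Of the transmembrane collagens, Col23a1 was highest at 11.1 ± 1.04 CPM per kb and Col25a1 followed at 2.01 ± 0.262 CPM per kb. Col7a1, the anchoring-fibril collagen best known from skin, stood at 4.09 ± 0.874 CPM per kb. The multiplexin Col18a1, whose tail is released as endostatin, had 3.74 ± 2.39 CPM per kb and its relative Col15a1 0.552 ± 0.161 CPM per kb. Among laminins the highest alpha, beta and gamma chains per kb of exon were Lama5 at 2.5 ± 0.432, Lamb2 at 2.98 ± 0.518 and Lamc1 at 4.32 ± 0.459 CPM per kb. Lamb1 was close to Lamb2 at 2.40 ± 0.289 CPM per kb. In CPM, before division by length, Lamb1 was above Lamb2 in every library. The exons of Lamb1 hold 9917 bases and those of Lamb2 5624, so the order of these beta chains depends on the length used. Lamb3, a beta chain of the laminin of epithelial anchoring sites, was low at 0.111 ± 0.0363 CPM per kb.

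**Figure D1:**
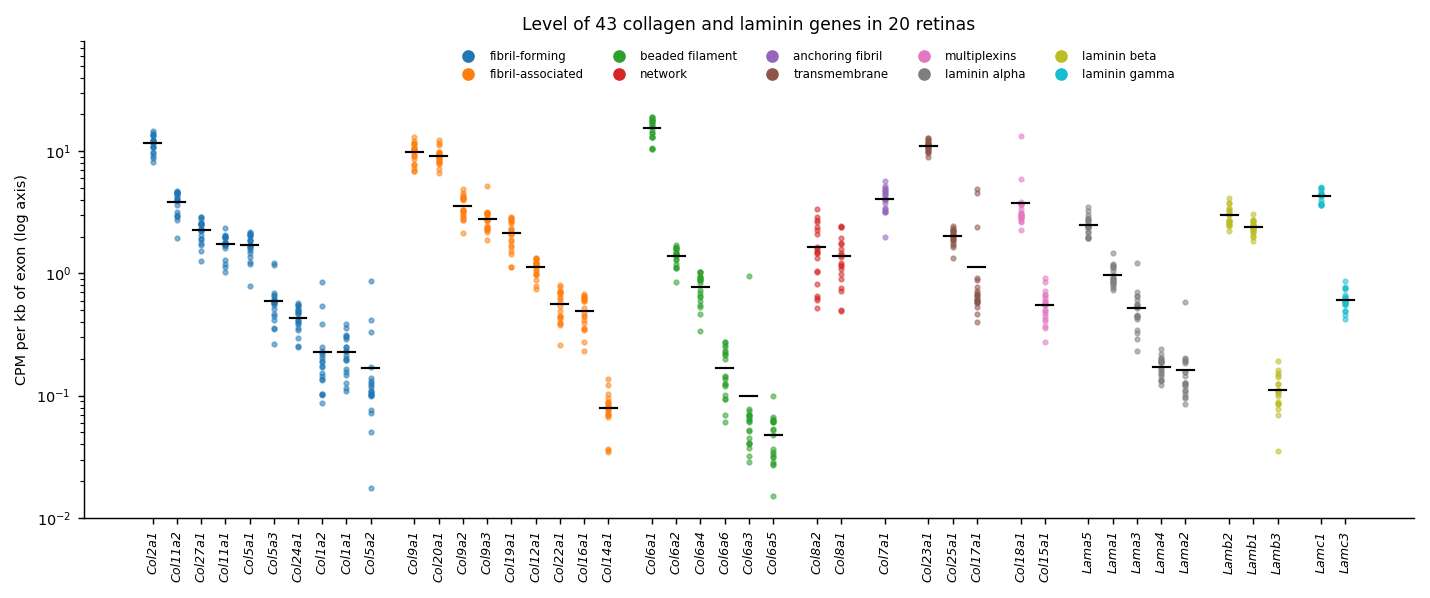
Level of 43 of the genes, as CPM per kb of exon on a log axis. Points are the 20 libraries, black bars their means, and colours the structural role. Means run from 0.0479 CPM per kb for Col6a5 to 15.4 CPM per kb for Col6a1, and single high points stand over Col17a1, Col18a1, Col6a3, Lama2, Col1a2 and Col5a2.

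The comparison of old with young control mice asked which chains differ with age without the drug. All young controls had a batch tag of 119 days and all old controls one of 668 days. Age and batch tag therefore cannot be told apart in this comparison. Of the 44 members, 1 passed the test, Col19a1, which was higher in old retinas. Over all 16484 genes tested, 1.42% passed, and 1.09% passed with a higher level in old retinas, so the share of members, 2.27%, was near the background. Before adjustment, 4 members (9.09%) and 16.3% of all genes had p under 0.05, with 3 members higher and 1 lower in old retinas against 9.06% and 7.24% of all genes. Without the libraries rich in ciliary, lens or corneal markers, 0 members passed by edgeR. The median difference was 0.05 on the log2 scale over members and -0.01 over all genes. The median size of the difference, up or down, was 0.22 for members and 0.11 for all genes.

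Col19a1, a fibril-associated collagen made by neurons among other cells, measured 14.3, 7.81, 12.8 and 9.86 CPM in the 4 young control libraries. In the 4 old control libraries it measured 19.6, 20.1, 19.5 and 18.7 CPM. Every old control library lay above every young control library, and the old ones were much closer together, with a mean of 19.5 ± 0.569 CPM (SD, n = 4) against 11.2 ± 2.92 CPM (SD, n = 4). Groups without overlap were found for 1 member of 44 and for 11.3% of all genes (9.45% with the old group higher). The log2 difference was 0.75 (SE 0.16, edgeR quasi-likelihood test, adjusted p = 0.0478). The adjusted p lay close to the threshold and rose above it when any 1 library other than young control 1 was left out, up to 0.142, while the difference stayed between 0.60 and 0.90 on the log2 scale. It also rose above the threshold with the labelled sex as a covariate (adjusted p = 0.172) and after removal of the length trend of each library (adjusted p = 0.0746).

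In NACET mice Col19a1 ran from 7.74 through a median of 11.6 to 15.6 CPM in young retinas and from 12.9 through 17.0 to 18.9 CPM in old ones. These groups overlapped, and the log2 difference of 0.43 (SE 0.13) between them did not pass (edgeR adjusted p = 0.0732). The gene lies on chromosome 1 (mm9, bases 24268729 to 24594311, reverse strand). Its neighbour, 9.15 kb away and read toward it, is Col9a1 (bases 24184449 to 24259577, forward strand), and the exons of the pair do not overlap.

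The other members with the smallest p in control retinas did not pass. Lamb2, a beta chain of the inner limiting membrane and of vessels, measured 13.9, 18.1, 18.3 and 23.3 CPM in young and 17.1, 15.0, 12.6 and 14.0 CPM in old controls (log2 difference -0.38, SE 0.13, edgeR adjusted p = 0.193). Lama3, the alpha chain of epithelial anchoring laminin, measured 3.45, 4.79, 4.62 and 4.6 CPM in young and 6.80, 7.43, 4.71 and 4.69 CPM in old controls (0.39, SE 0.17, edgeR adjusted p = 0.282). Col1a1 averaged 1.22 ± 0.342 CPM in young and 1.79 ± 0.47 CPM in old control retinas (mean ± SD, n = 4 each). In each of these the groups overlapped.

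Old and young mice on NACET were the larger groups, 6 against 6, and their comparison asked which chains differ with age under the drug. No batch tag was shared between young and old NACET mice, so age and batch tag cannot be told apart here either. Of 43 members tested, 4 passed. Col15a1, Col9a1 and Col9a2 were higher in old and Col8a2 was lower. The background was 4.88% of all 16276 genes tested, 2.24% higher and 2.64% lower in old retinas, and 9.30% of the members tested passed. Before adjustment, 14 members (32.6%) and 21.1% of all genes had p under 0.05, with 10 members higher and 4 lower against 10.4% and 10.7% of all genes. The median difference was 0.13 on the log2 scale over members and 0.00 over all genes, with a median size of 0.23 against 0.09. Lamb3 was too low to be tested.

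Col15a1 is a multiplexin of the outer face of basement membranes, where it links them to fibrils, and it lies on chromosome 4 (mm9, bases 47221033 to 47326039, forward strand). It ran from 2.25 through a median of 2.71 to 3.54 CPM in young NACET libraries and from 4.00 through 4.38 to 5.85 CPM in old ones. The groups did not overlap, which held for 3 of 43 members and for 4.07% of all genes (3.29% with the old group higher). The log2 difference was 0.70 (SE 0.13, edgeR adjusted p = 0.00526), and it passed with each of the 12 libraries left out in turn. In controls the young libraries measured 1.75, 3.50, 3.14 and 2.70 CPM and the old ones 3.81, 3.73, 3.50 and 3.03 CPM. These groups overlapped, and no difference passed there.

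The type IX chains Col9a1 and Col9a2 were both higher in old NACET libraries. Col9a1 (chromosome 1) ran from 35.4 through 43.4 to 51.8 CPM in young and from 52.4 through 57.2 to 66.9 CPM in old NACET libraries, a log2 difference of 0.38 (SE 0.09, edgeR adjusted p = 0.0168). Col9a2 (chromosome 4, mm9, bases 120711990 to 120727927, forward strand) ran from 8.51 through 9.57 to 10.3 CPM in young and from 10.3 through 12.9 to 15.1 CPM in old ones, a log2 difference of 0.39 (SE 0.09, edgeR adjusted p = 0.0188). The groups did not overlap for either gene, although the nearest Col9a2 libraries both rounded to 10.3 CPM. The remaining chain, Col9a3, ran from 8.82 through 11.6 to 12.2 CPM in young and from 8.36 through 10.4 to 11.9 CPM in old NACET libraries and did not pass. In controls the 3 chains overlapped between ages.

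Both type IX calls passed with each of the 12 libraries left out in turn. Col9a2 did not pass with the replicate block (edgeR adjusted p = 0.0803) or with all 4 groups fitted together (edgeR adjusted p = 0.0926). With a score of corneal markers as a covariate, neither passed (edgeR adjusted p = 0.0677 for Col9a1 and 0.0699 for Col9a2). Without the 8 libraries of the series that exceeded 5 times the median in ciliary, lens or corneal markers, Col9a1 passed but Col9a2 did not (log2 difference 0.27, SE 0.11, edgeR adjusted p = 0.168). In that smaller set, 3 young and 4 old NACET libraries, the count of members that passed was 13 of 42, Col8a2 among them, beside 658 of all 16349 genes. It was 11 of 42 when the length trend was removed as well, beside 1962 of all 16203 genes. The 3 young libraries left, NACET 1, 2 and 6, were those with the fewest reads of long genes in their group.

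**Figure D2:**
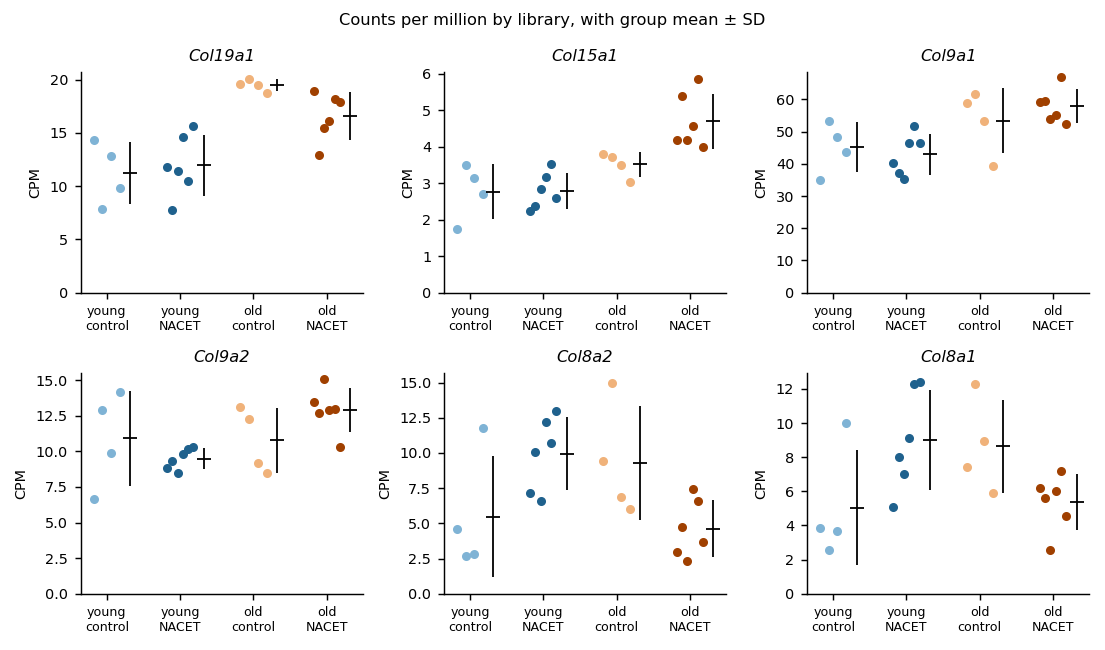
CPM of 6 genes in each library by group, with the group mean and SD beside the points. Col19a1 is higher in every old control than in every young control library, Col15a1 and Col9a1 are higher in every old NACET than in every young NACET library, and Col8a1 and Col8a2 are lower in most old NACET than in most young NACET libraries.

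Other members with p under 0.05 before adjustment in this comparison did not pass. The fibril chain Col27a1 ran from 22.0 through 27 to 32.2 CPM in young and from 26.6 through 35.1 to 37.7 CPM in old NACET libraries (log2 difference 0.28, SE 0.08, edgeR adjusted p = 0.0692). Col6a1 averaged 63.0 ± 11.8 CPM in young and 77.9 ± 8.38 CPM in old ones (mean ± SD, n = 6 each; 0.26, SE 0.09, edgeR adjusted p = 0.107). Col20a1 was on the other side, with 41.5 ± 7.08 against 35.8 ± 3.18 CPM (SD, n = 6 each; -0.26, SE 0.08, edgeR adjusted p = 0.0826). With all libraries of the groups in the edgeR fit, no laminin passed in this or any other comparison, while Lama3 passed between NACET ages without the marker-rich libraries (log2 difference 0.78, SE 0.16, edgeR adjusted p = 0.0134).

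NACET was compared with no treatment at each age, to ask whether the drug shifts the chains and whether it shifts them toward the young level in old retinas. In old mice, 0 of 44 members passed by edgeR, with a background of 0.543% of 16562 genes. DESeq2 called 1 member, Col11a1, and 9 members (20.5%) had an unadjusted p under 0.05, against 14.4% of all genes. Of these, 5 were higher and 4 lower with NACET, against 6.68% and 7.77% of all genes. The old control libraries are the same ones as in the comparison of ages, so the 2 comparisons are not independent. All old controls were 668 days old, whereas most old NACET mice were 581 or 574 days old. Drug and age cohort are therefore largely confounded. With cohort as a covariate, 0 members and 1 of 16562 genes passed by edgeR, against 90 genes without it. Among 668-day mice only, 0 members and 0 of 16839 genes passed by edgeR. In each of these settings, 10 of 44 members had an unadjusted p under 0.05. Over all genes it was 1559 of 16562 with the cohort covariate and 1396 of 16839 among 668-day mice.

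Col11a1, which nucleates type II fibrils, measured 17.6, 15.5, 16.5 and 12.5 CPM in old controls and ran from 17.1 through 19.1 to 20.0 CPM in old NACET libraries. The groups overlapped slightly (log2 difference 0.29, SE 0.08, edgeR adjusted p = 0.122, DESeq2 adjusted p = 0.0344). Col15a1 was higher in every old NACET than in every old control library, with medians of 4.38 and 3.62 CPM, but its log2 difference of 0.41 (SE 0.13) did not pass (edgeR adjusted p = 0.156). Groups without overlap in either direction were seen for this 1 member and for 3.57% of all genes (1.76% with the NACET group higher). Col19a1, the gene that differed between control ages, had a median of 19.5 CPM in old controls and 17.0 CPM in old NACET mice, a log2 difference of -0.24 (SE 0.09, edgeR adjusted p = 0.232).

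In young mice, 0 of 44 members passed by edgeR and by DESeq2, and 0% of 16588 genes did by edgeR. Unadjusted p was under 0.05 for 3 members (6.82%), Col17a1, Col8a1 and Col8a2, against 4.36% of all genes. All 3 were higher with NACET, against 2.19% of all genes higher and 2.18% lower. No member had groups without overlap, as had 0.723% of all genes. Col23a1 measured 51.7, 74.2, 68.8 and 74.0 CPM in young controls and ran from 57.0 through 61.4 to 69.2 CPM in young NACET libraries, which lies inside the control range. The median difference over members was -0.01 on the log2 scale. All young controls had a batch tag of 119 days, as had only young NACET 5 among the treated, so drug and batch tag are largely confounded. With the batch tag as a covariate, 0 members passed by edgeR. An unadjusted p under 0.05 was then found for 224 of 16588 genes, against 724 without it.

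The difference of the NACET effect between ages was tested as an interaction over all 20 libraries. By edgeR, 0 of 44 members passed, with a background of 0% of 16993 genes, and DESeq2 called 0 members too. An unadjusted p under 0.05 was found for 4 members (9.09%), Col8a2, Col17a1, Col8a1 and Col9a2, against 6.19% of all genes. The interaction was negative for 3 of them, against 3.93% of all genes, and positive for Col9a2, against 2.27%. For Col9a2 the interaction was 0.46 (SE 0.21, edgeR adjusted p = 0.784), and for Col15a1 it was 0.41 (SE 0.22, edgeR adjusted p = 0.83). For Col8a2 the interaction was -1.90 (SE 0.52, edgeR adjusted p = 0.211). Its age difference was 0.74 (SE 0.43) in controls, opposite in sign to that under NACET, and did not pass. Over all 20 libraries, the differences that passed between old and young NACET mice were therefore not shown to be absent or smaller in control mice. Without young control 4 the interaction of Col8a2 passed, as given below.

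**Figure D3:**
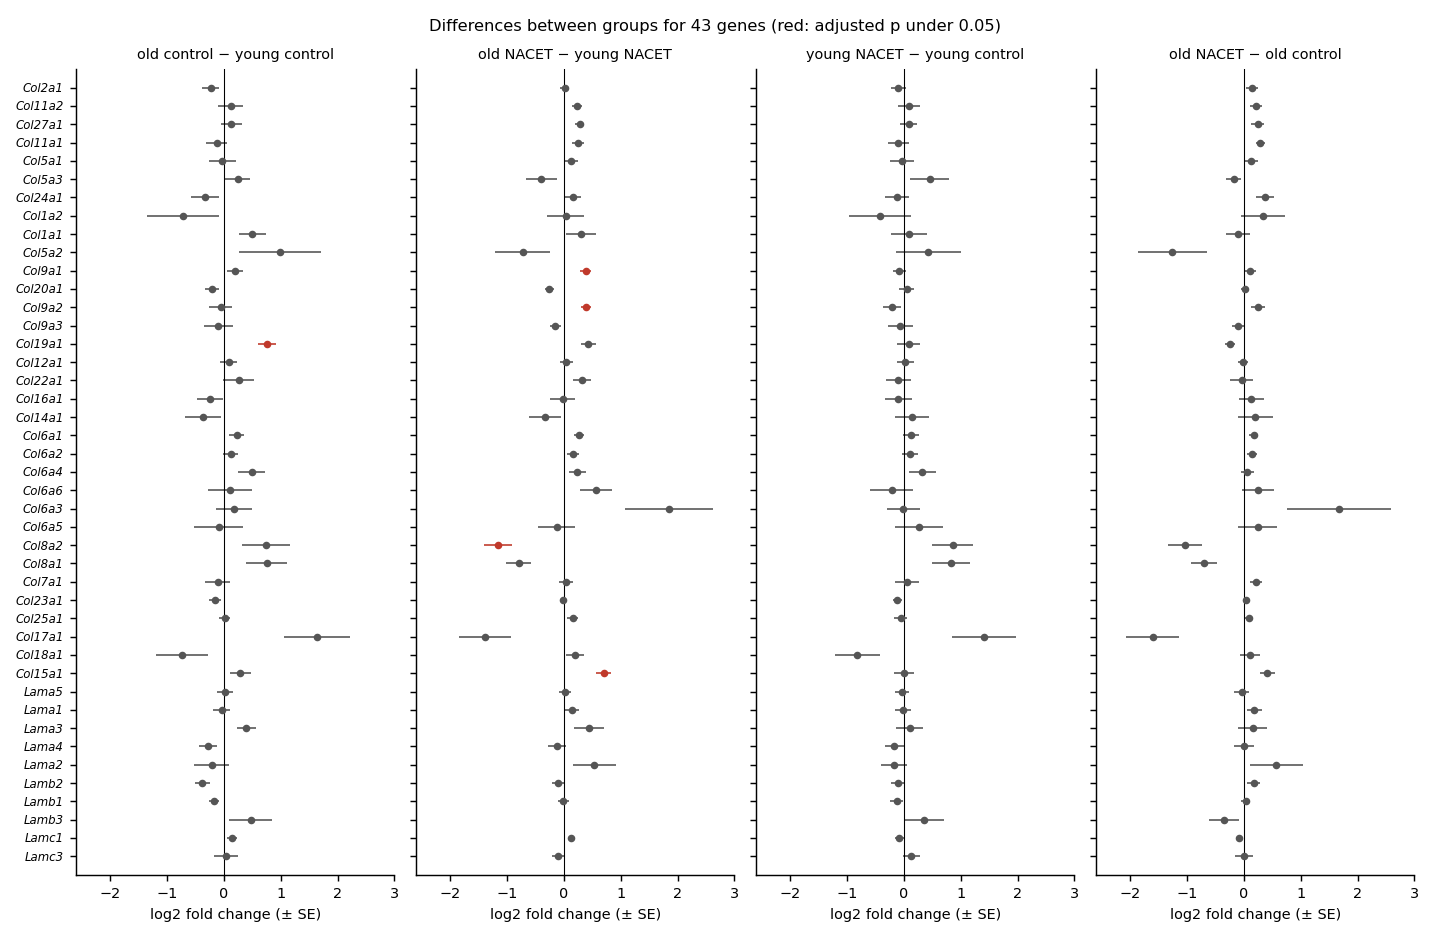
Log2 fold change (± SE) of 43 of the genes in 4 comparisons of groups, ordered by role. Red points passed at an adjusted p under 0.05, which were Col19a1 between control ages and Col9a1, Col9a2, Col8a2 and Col15a1 between NACET ages. Col17a1 lies far out to both sides, at 1.63 between control ages and -1.61 for NACET in old mice, and Col6a3 is at 1.85 between NACET ages.

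Type VIII collagen, a short-chain network collagen of vessel walls and of the basement membrane of the corneal endothelium, has a pair of chains that moved together across libraries. Its chains Col8a1 (chromosome 16, mm9, bases 57624371 to 57754850, reverse strand) and Col8a2 (chromosome 4, mm9, bases 125964037 to 125991574, forward strand) had similar levels, 1.38 ± 0.602 and 1.63 ± 0.846 CPM per kb of exon. Both stood among the smallest unadjusted p values of each NACET comparison and of the interaction. Their promoters are shown for that reason. Each sequence is the 250 bases before the transcription start in RefSeq (build GRCm38.p6), 5′ to 3′ on the gene's own strand, with matches to the GC box GGGCGG on either strand in capitals.
Col8a1, chr16:57754738-57754987, reverse strand: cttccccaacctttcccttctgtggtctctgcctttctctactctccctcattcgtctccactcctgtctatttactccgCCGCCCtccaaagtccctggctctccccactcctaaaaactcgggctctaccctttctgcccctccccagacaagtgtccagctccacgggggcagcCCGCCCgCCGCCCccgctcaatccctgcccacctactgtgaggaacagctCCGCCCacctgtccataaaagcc
Col8a2, chr4:126286544-126286793, forward strand: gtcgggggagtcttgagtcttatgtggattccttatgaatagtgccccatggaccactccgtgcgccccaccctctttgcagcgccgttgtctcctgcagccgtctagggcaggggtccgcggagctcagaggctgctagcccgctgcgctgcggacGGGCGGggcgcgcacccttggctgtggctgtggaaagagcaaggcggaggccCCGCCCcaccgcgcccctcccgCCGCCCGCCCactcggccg

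Each promoter held 4 matches to the GC box, beginning 170, 73, 66 and 23 bases before the start in Col8a1 and 93, 41, 19 and 15 bases before it in Col8a2, where the last matches overlap each other. At least 4 matches were held by 4.09% of 32851 mouse promoter windows of this length, and at least 1 by 32.7%. Of the 31 members matched to a promoter, 20 (64.5%) held at least 1, and Lama5 was the remaining member with 4. Neither type VIII promoter held the E-boxes CACGTG and CATGTG, the homeobox site TAATCC or the TATA box TATAAA, which 6.02%, 12.3%, 6.25% and 12.4% of all windows held.

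Col8a2 measured 4.59, 2.70, 2.83 and 11.8 CPM in young controls and 9.41, 15.0, 6.84 and 6.02 CPM in old controls. It ran from 6.58 through 10.4 to 13.0 CPM in young NACET and from 2.34 through 4.21 to 7.41 CPM in old NACET libraries. The old NACET libraries were thus low and the young NACET libraries high, with a small overlap. The log2 difference between them was -1.16 (SE 0.24, edgeR adjusted p = 0.00942). Young control 4 stood far above the other young controls.

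Col8a1 followed the same course, with 3.87, 2.58, 3.66 and 10.0 CPM in young controls and 7.45, 12.3, 8.92 and 5.90 CPM in old controls. It ran from 5.09 through 8.58 to 12.4 CPM in young NACET and from 2.54 through 5.81 to 7.21 CPM in old NACET libraries. The difference between NACET ages was -0.80 (SE 0.22) and did not pass (edgeR adjusted p = 0.0512). NACET against control was 0.83 (SE 0.34) in young and -0.71 (SE 0.23) in old mice for Col8a1, and 0.86 (SE 0.36) and -1.04 (SE 0.30) for Col8a2, none of which passed.

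The interaction was -1.55 (SE 0.45, edgeR adjusted p = 0.292) for Col8a1 and -1.90 (SE 0.52, edgeR adjusted p = 0.211) for Col8a2. Young control 4 decided these calls. Without it the interaction was -2.12 (SE 0.40, edgeR adjusted p = 0.0335) for Col8a1 and -2.59 (SE 0.45, edgeR adjusted p = 0.0189) for Col8a2. Without old control 2, the highest old control, it was -1.31 (SE 0.46) and -1.55 (SE 0.52), with an edgeR adjusted p of 0.998 for both. The age difference in controls for Col8a1, 0.75 (SE 0.36, edgeR adjusted p = 0.331), became 1.32 (SE 0.25, edgeR adjusted p = 0.0355) without young control 4.

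Both chains moved with the markers of the retinal pigment epithelium, the pigmented sheet that borders the retina. These markers, led by Rgr, Ttr and Rpe65, summed to 65.4, 50.3, 44.6 and 266 CPM in young controls and 174, 239, 163 and 107 CPM in old controls. They ran from 101 through 158 to 200 CPM in young NACET and from 38.6 through 88.5 to 129 CPM in old NACET libraries. As for the type VIII chains, old NACET libraries were lower than most young NACET libraries and young control 4 stood far above the other young controls. Of 11 markers, 10 were in the tables and all 10 reached the level rule. Within groups, over the 20 libraries, Col8a2 correlated with the mean log2 level of these markers at Pearson r = 0.95 and Spearman rho = 0.96.

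The permutation p for Col8a2 was 1e-05, the smallest that 100000 permutations can give, and adjusted over 16832 genes it was 0.0561. Without the 2 libraries farthest from the median score r was 0.91, and it was 0.97 in young and 0.94 in old libraries alone. For Col8a1, r was 0.87 and rho 0.86 (permutation p = 7e-05, adjusted 0.0748), and r was 0.74 without those 2 libraries. No gene passed this test over the whole table, 0% of 16832. At the smallest possible p, a gene could pass only if several genes reached that p together. The absence of calls therefore depends in part on the number of permutations. The next members were Col9a3 at r = 0.67, which fell to 0.39 without the 2 libraries, and Col18a1 at 0.55, which fell to 0.17.

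With the pigment epithelium score as a covariate, the difference of Col8a2 between NACET ages was -0.48 (SE 0.16) and no longer passed (edgeR adjusted p = 0.134). In the same fit the effect of NACET in old mice was -0.04 (SE 0.18) for Col8a2 and -0.05 (SE 0.22) for Col8a1, and the age difference in controls was 0.27 (SE 0.15) and 0.38 (SE 0.18). In young mice the effect of NACET was 0.62 (SE 0.14) and 0.57 (SE 0.18). Neither passed by edgeR there, where 0 members and 4 of 16588 genes did. Col15a1 passed in this fit between NACET ages and Col9a1 did too, while Col9a2 did not (edgeR adjusted p = 0.0893).

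**Figure D4:**
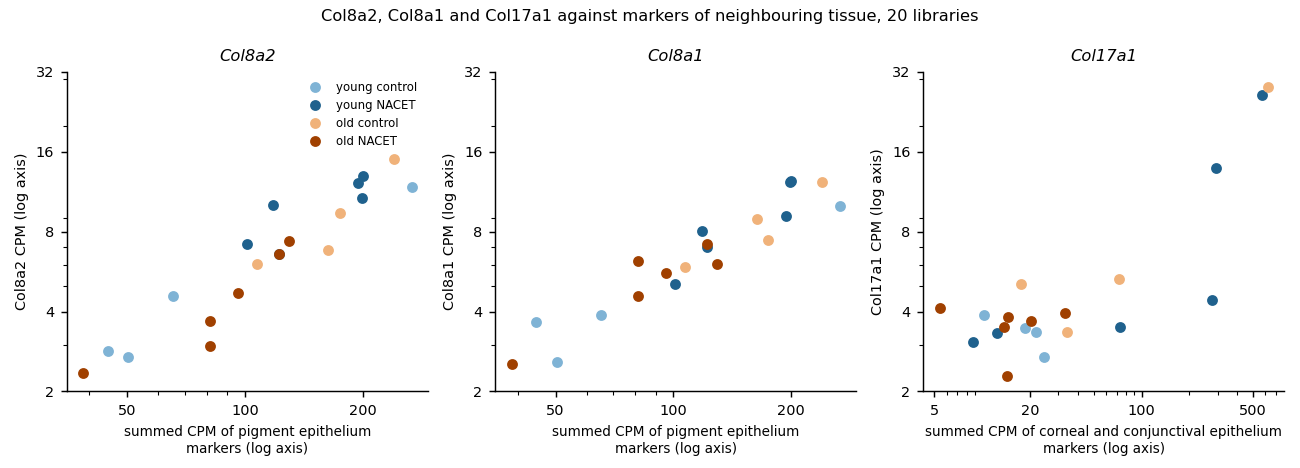
CPM of Col8a2 and Col8a1 against the summed CPM of pigment epithelium markers, and of Col17a1 against that of corneal and conjunctival markers, in the 20 libraries on log axes, coloured by group. The type VIII chains climb with the pigment epithelium markers over the libraries, whereas Col17a1 is at 28.1, 26.3 and 13.9 CPM in 3 libraries with high corneal markers and at most 5.32 CPM in the others.

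Col17a1, the transmembrane collagen of hemidesmosomes in stratified epithelia, was high in 3 libraries. It measured 5.06, 28.1, 3.34 and 5.32 CPM in old controls and 3.35, 3.87, 3.48 and 2.70 CPM in young controls. In young NACET libraries it ran from 3.07 through 3.96 to 26.3 CPM and in old NACET libraries from 2.29 through 3.77 to 4.14 CPM. The 3 libraries that stood out, old control 2 and young NACET 4 and 5, were the 3 with the highest corneal marker sums, while young NACET 3, with nearly the same sum as NACET 5, had 4.42 CPM.

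The fitted differences of this gene were large and changed sign, with 1.63 (SE 0.58) between control ages, 1.41 (SE 0.57) for NACET in young mice, -1.61 (SE 0.47) for NACET in old mice and -3.01 (SE 0.83) for the interaction, and none passed. Without old control 2, the age difference in controls was 0.40 (SE 0.19) and the effect of NACET in old mice -0.36 (SE 0.18). Within groups, Col17a1 correlated with the mean log2 level of the corneal markers at r = 0.72 and rho = 0.54 (permutation p = 0.02, adjusted 0.803), and r was 0.40 without the 2 farthest libraries. Over all genes, 0.297% correlated positively and 0.00594% negatively with this score.

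The planned relation was to 16 fibroblast and connective tissue markers without any collagen, of which 12 reached the level rule, to ask whether collagen levels track connective tissue of sclera, choroid or cornea in the sample. Of the 44 members 0 passed after adjustment, as did 0% of 16832 genes. The highest correlations within groups were Col18a1 at r = 0.89 (rho 0.85, permutation p = 0.0012, adjusted 0.186), Col1a2 at 0.87 (rho 0.78, permutation p = 0.00065, adjusted 0.149), Col9a3 at 0.84 (rho 0.78, permutation p = 0.0011, adjusted 0.184), Lamb2 at 0.79 and Col9a2 at 0.59. Young control 4 and old NACET 3, the libraries with high ciliary markers, carried much of the first 3. Without them r was 0.58 for Col18a1, 0.56 for Col1a2 and 0.50 for Col9a3, but it stayed at 0.79 for Lamb2. Other members rose in the same setting, Lama5 from 0.35 to 0.80, Col6a3 from 0.43 to 0.80, Lama1 from 0.19 to 0.79, Lama3 from 0.36 to 0.79 and Lama2 from 0.43 to 0.74. Old NACET 1 was the highest library for each of these genes. It also had the highest connective tissue score of the libraries left, 2.2, and its part in these values was not tested. In this setting 0 members passed after adjustment. The order of the members thus changed without those 2 libraries, young control 4 and old NACET 3.

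At the other end were Col22a1 at r = -0.23, Col6a6 at -0.22, Col14a1 at -0.17, Col6a5 at -0.16 and Col6a1 at -0.11, all with an adjusted p of 1 by the same permutation test. Without the same 2 libraries, r was -0.08 for Col22a1 and positive for the other 4, at 0.13, 0.25, 0.38 and 0.52 for Col6a6, Col14a1, Col6a5 and Col6a1. Col1a1, the partner of Col1a2 in type I collagen, did not share its excursions. In young control 4 Col1a2 measured 10.2 CPM and Col1a1 1.63 CPM, and in old NACET 3 they measured 6.54 and 0.976 CPM. Summed connective tissue markers were 179 CPM in young control 4, 131 CPM in old NACET 1 and 117 CPM in old NACET 3, and at most 86.8 CPM elsewhere. Of the other lists, skeletal muscle markers summed to between 4.06 and 6.75 CPM, pericyte and smooth muscle markers to between 44 and 98.0 CPM, vascular endothelium markers to between 110 and 215 CPM, astrocyte markers to between 35.9 and 76.7 CPM and Muller glia markers to between 2810 and 3860 CPM.

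Single libraries held most of the wide spread in the family. Col18a1 was at 93.9 CPM in young control 4 and 41.8 CPM in old NACET 3, and between 16.0 and 26.7 CPM in the other 18. Ciliary markers were high in the same pair of libraries. The effect of NACET in young mice on Col18a1 was -0.82 (SE 0.39, edgeR adjusted p = 1), and without young control 4 it was 0.15 (SE 0.11). Col9a3 stood at 20.0 CPM in young control 4 and at 8.36 to 12.2 CPM in the other libraries apart from 7.27 CPM in young control 1.

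Old NACET 1, the library with lens markers, was highest for Col6a3 at 11.3 CPM, against at most 0.925 CPM in any other library, and with it the difference of Col6a3 between NACET ages was 1.85 (SE 0.77, edgeR adjusted p = 0.179). It was also highest for the laminin chains Lama1 at 13.9 CPM, Lama2 at 5.73 CPM, Lama3 at 12.7 CPM and Lama5 at 39.8 CPM. Nid1, which bridges laminin and type IV collagen in basement membranes, was at 50.8 CPM there and at most 1.85 CPM elsewhere. These genes were high together in 1 library, and the part of lens tissue in this was not tested. Col5a2 was at 8.27 CPM in old control 1 and at 4.00 and 3.18 CPM in young NACET 5 and 6, against at most 1.65 CPM elsewhere.

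**Figure D5:**
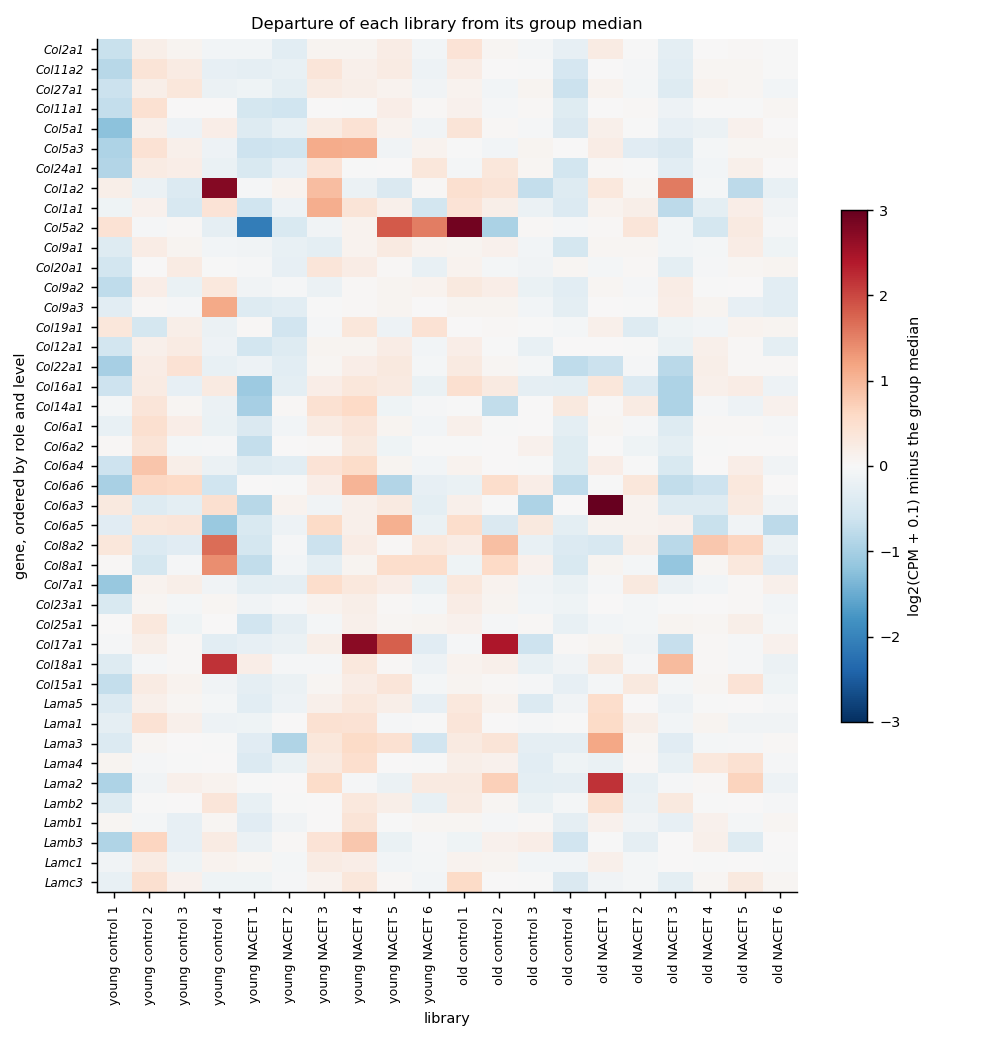
Departure of each library from its group median for 43 of the genes, as log2(CPM + 0.1), with red above and blue below. Single cells stand out for Col1a2, Col18a1, Col9a3 and the type VIII chains in young control 4, for Col17a1 in 3 libraries, for Col6a3, Lama2 and Lama3 in old NACET 1 and for Col5a2 in old control 1, while young control 1 is blue over many long genes.

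Genes that make, cross-link, bind and cleave collagen and laminin were read beside their targets. Of 20 tested genes for collagen folding, modification and secretion, 1 rose and 1 fell between NACET ages and 0 passed by edgeR in the other comparisons. Leprel2, which hydroxylates prolines in collagen chains, ran from 31.2 through 37.7 to 44.1 CPM in young and from 44.5 through 48.4 to 54.6 CPM in old NACET libraries (log2 difference 0.33, SE 0.06, edgeR adjusted p = 0.00567). Plod1, which hydroxylates lysines, ran from 20.1 through 22.0 to 24.6 CPM in young and from 18.4 through 19.5 to 20.4 CPM in old ones (-0.22, SE 0.05, edgeR adjusted p = 0.0213). The old NACET libraries lay above the young ones for Leprel2 and mostly below them for Plod1.

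None of the 11 tested genes of procollagen processing and cross-linking passed in any comparison by edgeR, nor did any of the 15 basement membrane partners, the 17 to 19 receptors or the 10 to 11 proteases and inhibitors. In the comparison of NACET ages, 0 genes of procollagen processing, 5 partners, 5 receptors and 4 proteases or inhibitors had an unadjusted p under 0.05, of 11, 15, 17 and 10 tested, against 21.1% of all genes. The nearest to a call were Egflam, the ligand of dystroglycan at photoreceptor synapses, at -0.26 (SE 0.07, edgeR adjusted p = 0.0532) between NACET ages, the laminin receptor Itga7 at 0.25 (SE 0.08, edgeR adjusted p = 0.0628) in the same comparison and Pcolce2, an enhancer of procollagen cleavage, at 0.43 (SE 0.10, edgeR adjusted p = 0.0658) for NACET in old mice.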

How the data were processed

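Libraries were made with the TruSeq RNA v2 kit, which does not mark strand. Per the labels and the study's methods, the authors aligned single-end reads to mm9 with TopHat 2.1.0 and counted whole reads per gene with HTSeq 0.11.2, and the deposited values are those raw counts, not normalized. The 5 HTSeq summary rows and 1 row without a gene name (0.00094% to 0.0022% of gene counts) were left out. Counts were compared with edgeR 4.0.16 (TMM scaling, filterByExpr, quasi-likelihood test) for each pair of groups, and for the interaction over all 20 libraries, with Benjamini-Hochberg adjustment over all genes tested and a threshold of 0.05. DESeq2 1.42.0 was an alternative. Standard errors were derived from the log2 fold change and its F statistic. Correlations used log2 CPM with a prior count of 1, centred within groups, and 100000 permutations within groups (two-sided). Procedures were tested on simulated data. Exon lengths and positions came from the mm9 annotation, and promoter sequences from RefSeq.

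Members and gene lists were chosen with earlier results of these data known. Named genes were members that passed in any comparison, the 6 with the smallest p in each, the highest per kb in each role, the 4 with the largest ratio of highest to median library, the 5 highest and 5 lowest correlations with connective tissue markers, and pathway genes that passed or, without any, up to 2 per list. Some genes, among them 1 member, are not reported here by name, although counts and medians over all members include it. A few other members are named beside their partners. Counting ignored strand, so a read wholly within overlapping exons of adjacent genes is ambiguous and is counted for neither gene. Overlaps with genes on the opposite strand cover 6.27% of the exon bases of Lamc3 and 6.07% of those of Col9a3. Marker covariates, the removal of GC and length trends, the set without marker-rich libraries and the corneal and pigment epithelium correlations were added after the data were seen.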

Additional observations from a re-analysis of the deposited data

Results flagged for a closer look

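Among 27 named genes, each of the 4 groups was examined for a library whose gap to its nearest neighbour, as a share of the group's range, passed Dixon's 95% limit. Of 108 groups, 15 did so, where chance gives about 1 in 20 for genes chosen without regard to their libraries. Some of these genes were named for a high single library, and the same few libraries recur, so the share cannot be read against that figure. The highest values were Col17a1 at 28.1 CPM in old control 2 (others 3.34 to 5.32), Col18a1 at 93.9 CPM in young control 4 (others 16.0 to 21.2) and at 41.8 CPM in old NACET 3 (others 19.0 to 26.7), and Col9a3 at 20.0 CPM in young control 4 (others 7.27 to 9.22). Col1a2 stood out at 10.2 CPM in young control 4 (others 1.05 to 1.65), at 6.54 CPM in old NACET 3 (others 1.22 to 2.72) and at 4.66 CPM in young NACET 3 (others 1.75 to 2.60). Col5a2 was at 8.27 CPM in old control 1 (others 0.483 to 1.04). Old NACET 1 held Col6a3 at 11.3 CPM (others 0.488 to 0.828), Lama3 at 12.7 CPM (others 4.44 to 5.87), Lama5 at 39.8 CPM (others 24.8 to 27.8) and Lamc1 at 41.0 CPM (others 35.4 to 37.0).

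Low values were Col17a1 at 2.29 CPM (others 3.51 to 4.14) and Col6a1 at 61.6 CPM (others 78.1 to 84.0) in old NACET 3, and Lama3 at 3.45 CPM in young control 1 (others 4.6 to 4.79). Old NACET 3 and young control 4 had high ciliary markers, old control 2 high corneal markers and old NACET 1 high lens markers. Their part in these values was not tested.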

How the results depend on the processing

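Over 30 pairs of a named member and a comparison, 919 values came from alternatives, and 858 kept their direction and their side of the threshold. Of 18 other settings besides leaving out libraries and 6 added after the data were seen, several changed counts of members that passed. Between control ages the Col19a1 call was lost, leaving 0 members, with the replicate block, labelled sex or Xist as a covariate, labelled males only, GC or length trends removed, the corneal covariate, and the set without marker-rich libraries with or without the length trend. It was also lost with the pigment epithelium covariate, where 2 other members passed, Col18a1 and Col1a2 (212 of 16484 genes), and in libraries without Xist, where Col8a1 passed. Leaving out 1 library gave 0 to 1, which was Col8a1 without young control 4 and Col19a1 without young control 1. NACET in old mice gave 1 with DESeq2 in place of 0 (375 of 25388 genes), and in young mice 1 without marker-rich libraries and the length trend (10 of 16081). Between NACET ages, 4 calls became 8 with DESeq2 (1326 of 25509 genes), 2 with a fold change of at least 1.5 (234 of 16276), 2 with the pigment epithelium covariate (301 of 16276), 13 without marker-rich libraries (658 of 16349) and 11 with the length trend removed too (1962 of 16203). Of the 4, both last sets kept 3 and lost Col9a2. The interaction gave 0 to 2 with 1 library left out and 1 without marker-rich libraries and the length trend (9 of 16794 genes). The connective tissue correlation gave 3 when values were not centred by group (56 of 16832 genes). The causes of these changes were not tested.

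Directions reversed for 2 genes. Col17a1 became 0.05 for NACET in old mice with the corneal covariate, and in young mice -0.09 without marker-rich libraries and -0.04 with the length trend removed too. Col18a1 became 0.27 for NACET in young mice among labelled males, 0.14 without marker-rich libraries and 0.21 with the length trend removed too, and ranged from -1.06 to 0.15 with 1 library left out. Its interaction became -0.17, -0.26 and -0.31 in these settings and ranged from -0.04 to 1.17 with 1 library left out.

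Same-numbered samples did not deviate together, with correlations from -0.17 to 0.13, so the numbers do not pair them. With the replicate block, 5 members passed between NACET ages (422 of 16276 genes) and 0 elsewhere. Of those 5, 3 were among the 4 without the block, Col9a2 was lost and Col19a1 and Col8a1 were gained. Over all genes, calls between control ages were 234 and ranged from 54 to 721, those for NACET in old mice were 90 and ranged from 0 to 375, those between NACET ages were 795 and ranged from 234 to 1962, and those for the interaction were 0 and reached 86 with DESeq2. At a level near 0.5 CPM the depth of 17700500 to 31081959 gene counts gives few reads per gene, which limits Lamb3 and Col6a5.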
